A study of Homo sapiens with 6 samples.

Results

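The collagen chain genes encode the polypeptide chains that wind into the triple helices of the collagens, and they were taken here as every gene whose annotated symbol reads COL, a number, A and a number. Of the 48803 probes on the Illumina Human-6 BeadChip, 69 were annotated to such a gene, and they covered 42 genes. A probe was called detected on an array at a deposited detection p under 0.01, and a probe detected on at least 3 of the 6 arrays was tested. This left 31 collagen probes of 25 genes, among 18156 tested probes of 11264 genes.

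The arrays held RNA from WM-266-4, a human melanoma cell line. The CT16 group was 3 individual cultures of WM-266-4 cells carrying CT16 cDNA (the cancer-testis gene PAGE5) in the plasmid pEXPR-IBA103. The control group was 3 individual cultures of cells carrying the intact plasmid. Both lines had been selected with G418 and were kept in it, in DMEM with fetal bovine serum. The sources do not state whether either line was 1 clone or a pool, so the p-values measure the spread between cultures of 1 transfected line each and not the spread between transfections. The question put to these genes was whether any chain differed between CT16 and control cells.

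Each collagen molecule is a bundle of chains wound around each other, and different collagen types use different chains. Fibrillar collagens such as types I, II, III and V form the cross-banded fibrils of connective tissue. Type IV forms the sheet of the basement membrane, type VI forms beaded microfilaments, and the fibril-associated collagens with interrupted triple helices (FACIT) decorate fibrils made by others. Multiplexins, types XV and XVIII, sit in and near basement membranes, and their cleaved ends include endostatin. A melanoma cell meets collagen IV when it crosses a basement membrane and collagen I in the dermis, and it can make collagen chains itself.

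No collagen chain gene passed the threshold of an adjusted p under 0.05 in limma, although several were lower in every CT16 culture. The count past the threshold was 0 of 25, beside 27 of all 11264 genes tested (0.24%). At an unadjusted limma p under 0.05, which tolerates many chance calls, 9 collagen chain genes were lower in CT16 cells, beside 3.1% of all genes, and 1 was higher, beside 3.31%. COL5A3 and COL4A3 were each detected in 1 group alone, so a difference was built into their being tested. Among the 23 chain genes detected in both groups, 8 were lower at that p (34.8%) and 0 were higher, beside 2.93% lower and 2.81% higher of the 11155 genes detected in both groups. The median log2 difference, CT16 minus control, was -0.35 over these 23 genes and -0.027 over the 11155, and 17 of the 23 (73.9%) lay below 0, beside 53% of the 11155. In 10 of the 23 (43.5%) every CT16 array lay below every control array, beside 7.23% of the 11155 genes.

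PAGE5, the transfected gene, was read by 3 probes. The brightest had log2 signals of 6.24, 6.14 and 7.47 in CT16 cells, against 5.40, 5.44 and 5.70 in control cells, a log2 difference of 1.11 ± 0.37 (SE, n = 3 each) with an adjusted p of 0.582. Every CT16 array lay above every control array for this probe, but these are faint signals, since the dimmest detected probe of each array read between 5.07 and 5.39. A second PAGE5 probe differed by 0.019 ± 0.30, and the last was detected on no array. Both tested PAGE5 probes were detected on all 3 control arrays as well as on all 3 CT16 arrays. The paper reports that CT16 in the transfected cells was checked by qRT-PCR and Western blot, with control-plasmid cells as a negative control. By immunofluorescence it found only background in the control cells. Between 16200 and 18789 probes were detected per array, and the median bead signal was 63.6 to 65.6. CT16 replicate 3 stood apart, with 33.2% of probes detected and correlations of 0.91 and 0.88 with the other CT16 arrays, which correlated at 0.99 with each other. It also detected 27 collagen probes, against 31 on each other array. Control pairs correlated at 0.97 to 0.99.

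Of the melanoma and melanocyte markers, 7 of 8 were tested and none had an unadjusted p under 0.05, and their summed linear signal was 35300 to 40700 in CT16 cells and 37900 to 40700 in control cells. Fibroblast markers other than collagens were tested for 6 of 9. Of these, 1 was lower and 1 higher at an unadjusted p under 0.05, beside 3.1% and 3.31% of all genes. Their summed signal was 9240 to 11800 in CT16 cells and 8560 to 9900 in control cells. Most of that sum was ACTA2, which read 12.90 to 13.35 in log2 over the 6 arrays. FAP, the next member by mean signal, read 8.42 to 9.62, so the sum does not show differences in the dimmer members. Within that list THY1, a cell-surface glycoprotein, was at least 8.91-fold higher in CT16 cells (adjusted p = 0.0081). THY1 was detected on 3 CT16 arrays and 0 control arrays, so a difference was built into its being tested. LUM, a proteoglycan that binds collagen fibrils, had a log2 difference of -1.87 ± 0.31 (adjusted p = 0.1). Its CT16 signals of 5.08, 5.50 and 4.48 were near the detection limit, and it was detected on 2 of the 3 CT16 arrays. DCN, PDGFRB and POSTN were not tested because too few arrays detected them. Of 5 endothelial markers 4 were tested, with 1 lower and 1 higher at an unadjusted p under 0.05, beside 3.1% and 3.31% of all genes. Their summed signal was 290 to 571 in CT16 cells and 294 to 368 in control cells. All 6 arrays held RNA of 1 cell line, which the paper states was authenticated by STR analysis. These lists are therefore given as genes read in melanoma cells and not as shares of cell types. Differences between cells within a culture were not tested. In bulk RNA, fewer cells with a transcript and less of it per cell cannot be told apart.

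The start regions of 4 chain genes are shown here because these genes are the type IV pair (through COL4A2) and 3 others whose values are described below: COL15A1 and COL27A1, lower in CT16 cells, and COL5A3, the single chain gene higher at an unadjusted limma p under 0.05. Each is the first RefSeq window listed for its gene, read 5′ to 3′ on the gene's own strand. A window runs from 250 bases before to 50 bases after a start on GRCh38.p14. Capitals mark the letters GGGCGG (a GC box) and CCAAT, searched on both strands. A GC box on the other strand reads CCGCCC here. The letters TATAAA were also searched on both strands, no motif overlapped another, and no window printed here held TATAAA.
COL4A2, chr13:110307034-110307333, plus strand: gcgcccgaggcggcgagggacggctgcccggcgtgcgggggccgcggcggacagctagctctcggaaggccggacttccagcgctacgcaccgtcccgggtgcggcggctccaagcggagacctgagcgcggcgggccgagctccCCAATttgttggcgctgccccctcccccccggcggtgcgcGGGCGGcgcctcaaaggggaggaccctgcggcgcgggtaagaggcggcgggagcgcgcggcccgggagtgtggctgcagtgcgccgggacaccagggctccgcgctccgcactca
COL15A1, chr9:98943657-98943956, plus strand: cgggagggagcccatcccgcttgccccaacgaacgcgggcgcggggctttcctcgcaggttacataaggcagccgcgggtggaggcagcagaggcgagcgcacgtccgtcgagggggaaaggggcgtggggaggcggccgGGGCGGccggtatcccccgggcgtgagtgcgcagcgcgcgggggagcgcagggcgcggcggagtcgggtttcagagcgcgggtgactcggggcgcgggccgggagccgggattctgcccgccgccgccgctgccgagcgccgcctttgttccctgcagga
COL27A1, chr9:114155287-114155586, plus strand: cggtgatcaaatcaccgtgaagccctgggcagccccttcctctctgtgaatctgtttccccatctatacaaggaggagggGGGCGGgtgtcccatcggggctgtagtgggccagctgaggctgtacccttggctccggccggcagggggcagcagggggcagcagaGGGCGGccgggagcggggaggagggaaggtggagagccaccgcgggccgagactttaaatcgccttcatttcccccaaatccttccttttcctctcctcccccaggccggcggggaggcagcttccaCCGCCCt
COL5A3, chr19:10010455-10010754, minus strand: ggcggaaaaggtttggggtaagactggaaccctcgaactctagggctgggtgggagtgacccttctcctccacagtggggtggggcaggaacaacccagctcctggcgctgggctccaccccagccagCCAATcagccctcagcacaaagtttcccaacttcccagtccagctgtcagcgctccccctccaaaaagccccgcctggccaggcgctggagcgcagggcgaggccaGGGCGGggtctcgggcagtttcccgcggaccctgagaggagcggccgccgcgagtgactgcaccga

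GGGCGG was found in 54.5% of the 44 windows of collagen chain genes and in 45.0% of all 35116 promoter windows in the table. CCAAT was in 31.8% of the collagen windows and 34.6% of all windows, and TATAAA was in 18.2% of the collagen windows and 11.5% of all windows. A window was held for 30 of the 42 chain genes. COL4A2 and COL4A1 are read away from each other on chromosome 13, with starts 127 bases apart, so their windows share 226 bases and the COL4A2 window above also holds the COL4A1 start. COL4A3 and COL4A4 have the same arrangement on chromosome 2, with starts 419 bases apart and 82 shared bases. These matches describe letters only and say nothing about which factors bind.

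Which chains the arrays could read differed by class. All 10 FACIT genes but 1 were tested, as were both multiplexins, 3 of 6 type IV genes, 3 of 5 type VI genes, 5 of 11 fibrillar genes, 2 of 3 short-chain genes of types VIII and X, and COL7A1, the anchoring fibril chain. None of the 3 transmembrane collagens (COL13A1, COL23A1 and COL25A1) was tested, nor was COL28A1. Of the 17 chain genes not tested, 12 were detected on no array and 5 (COL1A1, COL2A1, COL11A1, COL11A2 and COL23A1) on 1 or 2 arrays.

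**Figure D1:**
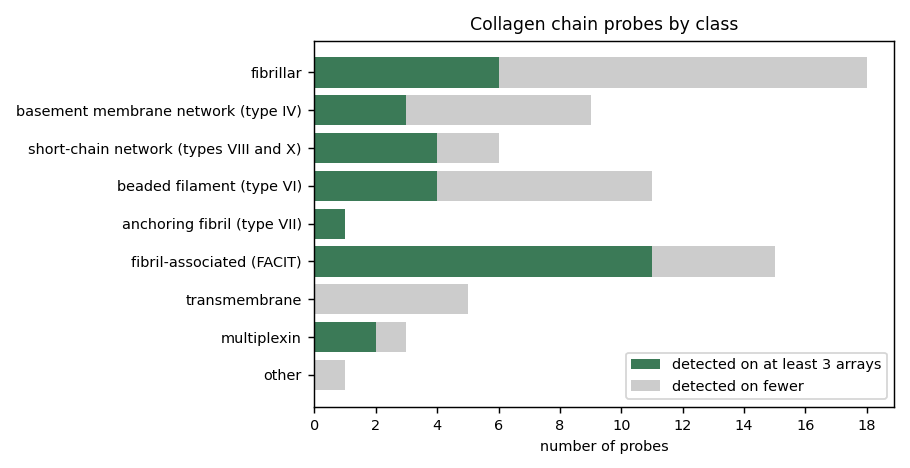
The horizontal axis counts the 69 collagen chain probes and each bar is 1 class, with probes detected on at least 3 of the 6 arrays in green and the others in grey. Of the 18 fibrillar probes 6 were detected, against 11 of 15 FACIT probes.

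Several collagens were therefore read through only some of their chains. Type I collagen is built mostly from COL1A1 and COL1A2 chains, and COL1A2 was detected on every array by both of its probes, while the single COL1A1 probe was detected on 1 array, CT16 replicate 3, at 5.82. COL3A1, the chain of type III collagen, and COL5A1, the main chain of type V, were detected on no array, whereas COL5A2 was detected on all of them. In type VI, COL6A1 and COL6A2 were detected and COL6A3 was not by either of its 2 probes. In type IV, COL4A1 and COL4A2 were detected throughout, COL4A3 in control cells alone, and COL4A4, COL4A5 and COL4A6 nowhere. Both chains of type VIII and all 3 chains of type IX were read in both groups. A probe that is not detected gives only an upper limit on its own signal, and it does not show that the transcript was absent.

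Among the fibrillar chains, COL1A2, the second chain of type I collagen, had the lowest log2 difference of all 25 tested chain genes. Its brighter probe read 10.91, 10.70 and 10.33 in CT16 cells, against 12.87, 12.43 and 12.08 in control cells, so the groups were separated by more than the range of either. The log2 difference was -1.81 ± 0.28 (SE, n = 3 each), or 3.52-fold lower in CT16 cells, with an adjusted p of 0.0877. Its other probe read 9.91, 10.02 and 9.31 in CT16 cells, against 11.28, 11.26 and 11.20 in control cells. That is 2.83-fold lower (adjusted p = 0.106), again with no overlap. Without CT16 replicate 3 the first probe passed the threshold, at -1.66 ± 0.25 and an adjusted p of 0.0239, and over all alternatives its adjusted p ran from 2.8e-06 (array weights) to 0.586.

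COL27A1, a fibrillar chain known from cartilage, read 5.08, 5.14 and 4.84 in CT16 cells, against 6.57, 6.02 and 6.12 in control cells. The probe was detected on 2 of the 3 CT16 arrays and on all control arrays. The groups did not overlap, and the log2 difference was -1.22 ± 0.24 (adjusted p = 0.155). These are signals near the detection limit, and the difference was -0.68 ± 0.16 with no background correction and -0.72 ± 0.17 with an offset of 50.

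COL5A3, a minor chain of type V collagen, was the only chain gene higher in CT16 cells at an unadjusted p under 0.05. It read 5.98, 5.46 and 6.80 in CT16 cells, against 4.84, 4.68 and 4.39 in control cells, where no array detected it. Set against the dimmest detected probes of the control arrays it was at least 1.87-fold higher, a bound that compares group means of log2 signals with that limit (adjusted p = 0.315). Its highest value was on CT16 replicate 3. The remaining fibrillar chains, COL24A1 and COL5A2, had log2 differences of -0.35 ± 0.26 and -0.23 ± 0.32, and their groups overlapped. Without CT16 replicate 3 the sign of COL5A2 turned, to 0.10 ± 0.17.

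**Figure D2:**
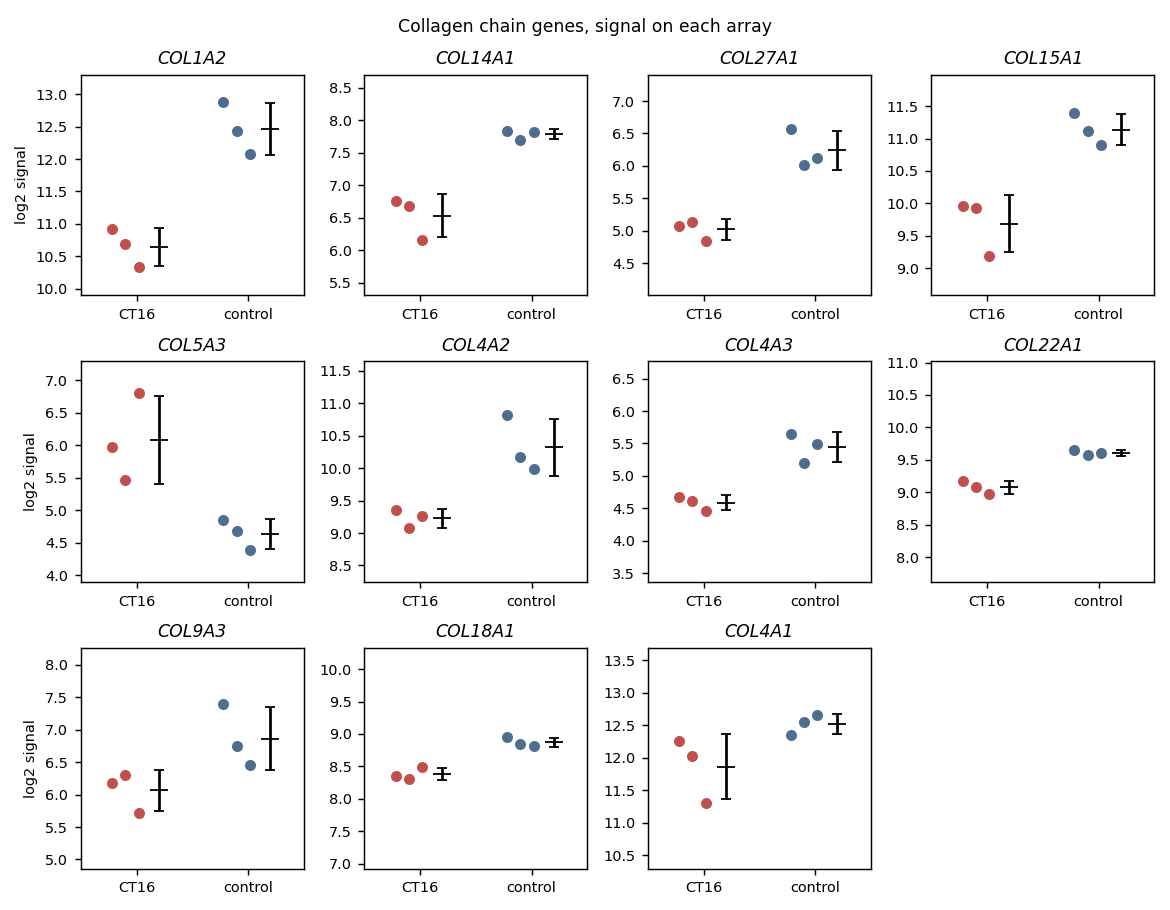
Each panel is 1 chain gene, with its log2 signal on the vertical axis, 1 point for each CT16 array (red, left) and each control array (blue, right), and the group mean with SD in black. All panels span the same number of log2 units. COL1A2 read 10.33 to 10.91 in CT16 cells and 12.08 to 12.87 in control cells, and COL5A3 is the one panel in which CT16 cells are higher.

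Of the 3 type IV chains tested, COL4A1 and COL4A2 were detected on all 6 arrays, and both were lower on every CT16 array than on any control array, beside 7.23% of the genes detected in both groups. COL4A2, the partner of COL4A1 in the common basement membrane trimer, read 9.36, 9.07 and 9.26 in CT16 cells, against 10.82, 10.17 and 9.98 in control cells. The log2 difference was -1.09 ± 0.27, or 2.13-fold lower (adjusted p = 0.330). COL4A1, whose start lies beside that of COL4A2, read 12.25, 12.03 and 11.30 in CT16 cells, against 12.35, 12.56 and 12.66 in control cells. Its difference of -0.66 ± 0.29 (adjusted p = 0.811) was -0.38 ± 0.18 without CT16 replicate 3, the lowest of its 6 arrays. The highest CT16 value and the lowest control value of COL4A1 were close together, unlike those of COL4A2.

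COL4A3, a chain known from the basement membrane of the kidney glomerulus, was detected on 0 of 3 CT16 arrays and on all 3 control arrays. It read 4.68, 4.62 and 4.46 in CT16 cells, against 5.65, 5.20 and 5.48 in control cells, a separation built into its being tested. Against the detection limit it was at least 1.20-fold lower in CT16 cells (adjusted p = 0.338). The second COL4A3 probe was not detected.

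Both multiplexins were lower on every CT16 array than on any control array, beside 7.23% of the genes detected in both groups. COL15A1, a basement membrane zone collagen, read 9.95, 9.92 and 9.18 in CT16 cells, against 11.39, 11.12 and 10.91 in control cells. The difference was -1.45 ± 0.28, or 2.74-fold lower, with an adjusted p of 0.157 over all 6 arrays and of 0.0324 without CT16 replicate 3, where it was -1.20 ± 0.19. Over all alternatives the adjusted p of COL15A1 ran from 5.93e-06 to 0.812. COL18A1, the parent of endostatin, read 8.35, 8.31 and 8.48 in CT16 cells, against 8.95, 8.85 and 8.82 in control cells. This is a small difference between tight groups, -0.49 ± 0.20 (adjusted p = 0.740).

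The FACIT chains were mixed, with a median log2 difference of -0.068. At an unadjusted p under 0.05, 3 of 9 were lower and 0 higher, beside 3.1% and 3.31% of all genes. COL14A1, which associates with collagen I fibrils, read 6.76, 6.68 and 6.15 in CT16 cells, against 7.83, 7.69 and 7.83 in control cells. The difference was -1.25 ± 0.24, or 2.38-fold lower (adjusted p = 0.145), and it passed the threshold without CT16 replicate 3 at -1.06 ± 0.16 (adjusted p = 0.0266). Its adjusted p over all alternatives ran from 7.83e-06 to 0.789. COL22A1, known from tissue junctions such as that of muscle and tendon, read 9.17, 9.07 and 8.98 in CT16 cells, against 9.66, 9.57 and 9.61 in control cells. Its difference was -0.54 ± 0.19 (adjusted p = 0.662). Neither COL14A1 nor COL22A1 overlapped between groups, beside 7.23% of the genes detected in both groups that were lower without overlap.

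Type IX collagen, which coats the fibrils of cartilage, is made of the chains of COL9A1, COL9A2 and COL9A3, none of which passed the adjusted threshold. Their 95% intervals overlapped, and differences between the chains were not tested. COL9A3 read 6.18, 6.30 and 5.71 in CT16 cells, against 7.40, 6.74 and 6.45 in control cells, a difference of -0.80 ± 0.31 (adjusted p = 0.721) with no overlap. Without control replicate 1 it was -0.53 ± 0.29. COL9A1 read 8.72, 9.01 and 8.68 in CT16 cells, against 9.20, 9.15 and 9.07 in control cells. That is a difference of -0.34 ± 0.21, while its 2 dimmer tested probes gave 0.044 ± 0.34 and 0.17 ± 0.30, so the COL9A1 probes disagreed in sign. COL9A2 had a difference of 0.075 ± 0.37, and it was 1.16 log2 units higher on CT16 replicate 3 than the mean of the other CT16 arrays.

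The other FACIT chains (COL12A1, COL16A1, COL19A1 and COL20A1) had differences between -0.068 and 0.082 with overlapping groups. COL12A1 was the most uneven of the 25 within the CT16 group, with CT16 replicate 3 standing 1.50 log2 units above the mean of the other CT16 arrays. Its interval of -0.96 to 1.02 leaves room for a difference of either sign. COL19A1 was detected on 2 CT16 arrays and 1 control array only.

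In type VI, whose microfilaments link cells to the surrounding matrix, COL6A1 read 8.65, 8.78 and 9.14 in CT16 cells, against 9.49, 9.06 and 9.10 in control cells, and the groups overlapped. Its difference was -0.36 ± 0.24 (95% interval -0.92 to 0.20), and COL6A2 gave -0.40 ± 0.33 with 1 probe and -0.74 ± 0.38 with another. COL6A5 had a difference of 0.086 ± 0.20. The short-chain network genes COL8A1 and COL8A2 had differences of -0.10 ± 0.22 and 0.13 ± 0.24, and COL7A1 had 0.070 ± 0.28. None of these chains separated the groups. Of the 5 chain genes with several tested probes, 4 had all probes on 1 side of 0, the exception being COL9A1.

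**Figure D3:**
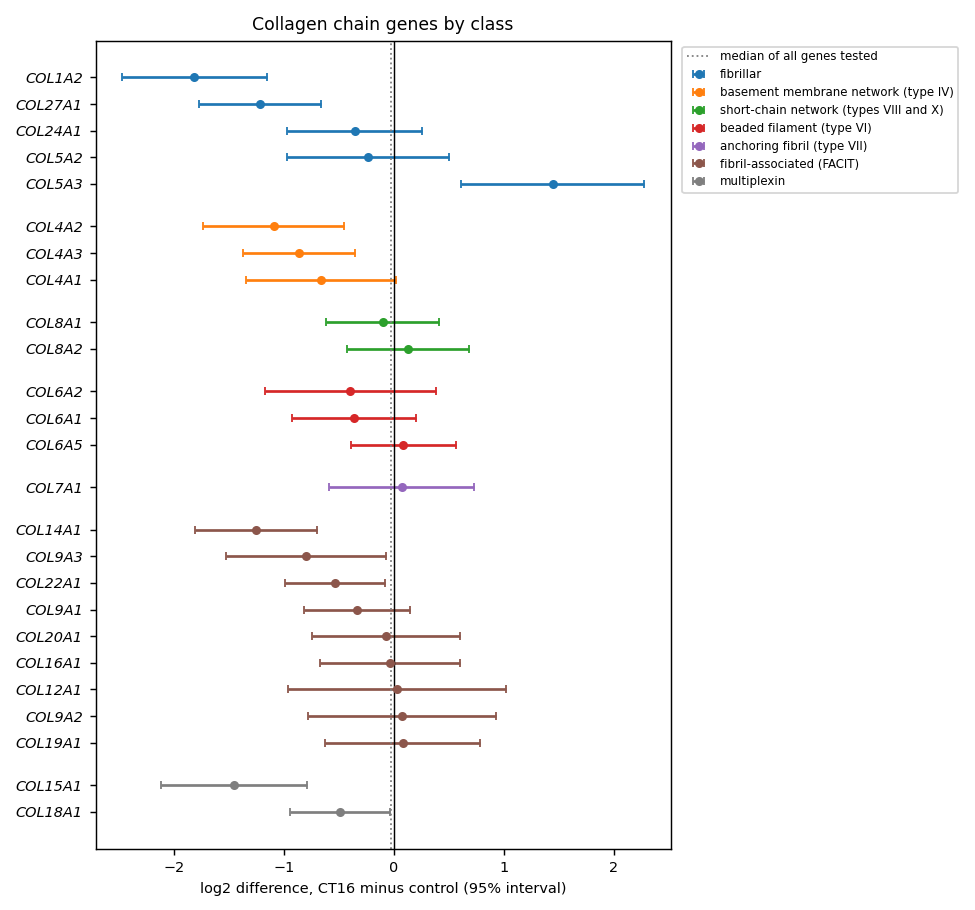
Each point is 1 of the 25 tested chain genes, grouped by class down the page, with its log2 difference, CT16 minus control, on the horizontal axis and its 95% interval from limma. COL5A3 and COL4A3, each detected in 1 group alone, are drawn at their fitted values, which are not bounds. The dotted line is the median of all genes tested, -0.025. The type IV and multiplexin genes and all but 1 of the fibrillar genes lie left of 0.

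Measured against the control mean, the median of the 25 chain genes was -0.44, -0.42 and -0.39 on CT16 replicates 1, 2 and 3, against 0.13, -0.03 and -0.07 on control replicates 1, 2 and 3. Control replicate 1 was 0.96 log2 units above the mean of the other control arrays for COL6A2, 0.80 for COL9A3, 0.75 for COL4A2 and 0.62 for COL1A2. CT16 replicate 3 was 1.00 below the mean of the other CT16 arrays for COL5A2 and 0.84 below it for COL4A1. With each array left out in turn, 6 to 10 of the 25 chain genes were lower at an unadjusted p under 0.05, in fits where 1.46% to 6.63% of all genes were, and the median of the chain genes lay between -0.42 and -0.24. The counts and medians of this paragraph include COL4A3 and COL5A3, whose differences were built into their being tested. Without CT16 replicate 3, COL1A2, COL14A1 and COL15A1 passed the adjusted threshold, in a fit that called 147 genes in all.

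**Figure D4:**
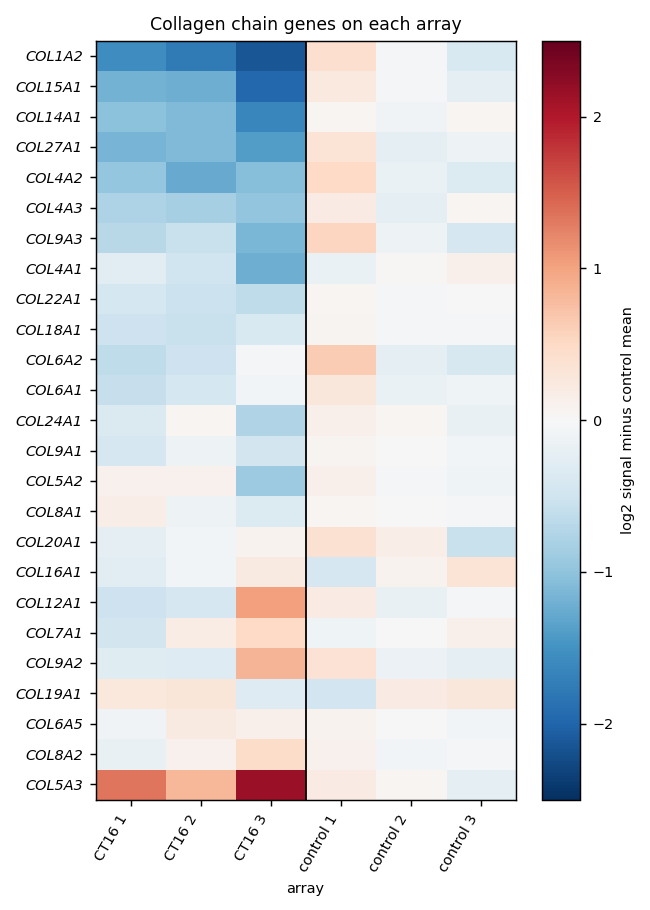
Rows are the 25 tested chain genes ordered by log2 difference, columns are the 3 CT16 arrays and then the 3 control arrays, and colour is the log2 signal minus the control mean (blue lower, red higher). The upper rows are blue on all 3 CT16 arrays, while COL12A1 and COL9A2 are red on CT16 replicate 3 only among the CT16 arrays.

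The genes that modify, export, assemble, bind and degrade collagen were set beside the chains, as lists, and none of their tested members passed the adjusted threshold. Of 18 genes for hydroxylation and folding in the endoplasmic reticulum, 16 were tested, 0 had an unadjusted p under 0.05 in either direction, and the median difference was -0.079. The 2 with the smallest p were P3H4, a partner of the lysyl hydroxylation machinery, at 0.35 ± 0.24 and PLOD1, a lysyl hydroxylase, at -0.30 ± 0.21. Of 9 secretion genes, 6 were tested with a median of -0.38 and 0 past that p. Every tested member was lowest, among the CT16 arrays, on CT16 replicate 3. SEC23A, for example, read 8.45, 8.50 and 6.15 in CT16 cells, against 8.11, 8.50 and 8.55 in control cells. That array deviated across all tested genes, by a median of 0.80 log2 units from the other CT16 arrays, against 0.33 and 0.48 for CT16 replicates 1 and 2. The share of all genes lowest on it was not computed, so this is not shown to be particular to the secretion genes. A list median without that array was not computed. TRAM2, which aids collagen I synthesis, differed by -0.47 ± 0.27, and MIA3, the cargo receptor that loads procollagen into export carriers, by -0.57 ± 0.37.

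Of 13 genes for propeptide cleavage and cross-linking, 5 were tested with a median of -0.33 and 0 past an unadjusted p of 0.05. BMP1, the protease that removes the carboxyl propeptide of fibrillar procollagens, differed by -0.67 ± 0.33, and PCOLCE2, an enhancer of that cleavage, by -0.38 ± 0.20. Of 8 basement membrane partners of collagen IV, 6 were tested with a median of -0.12 and 0 past that p. NID1, which bridges laminin and collagen IV, differed by -0.40 ± 0.32 and LAMB1, a laminin chain, by -0.36 ± 0.29, so neither separated the groups as the type IV chains did.

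Among 10 collagen receptors, 9 were tested, with a median of -0.22. Beside 3.1% of all genes, 1 was lower at an unadjusted p under 0.05. This was MRC2, an endocytic receptor for collagen, which read 6.39, 6.10 and 6.28 in CT16 cells, against 8.60, 7.37 and 6.53 in control cells (log2 difference -1.24 ± 0.48, adjusted p = 0.721). The control arrays were far apart for MRC2, and ITGA2, a chain of a collagen-binding integrin, differed by -0.49 ± 0.30 with overlapping groups. Apart from ITGA10, DDR1 and MRC2, each tested receptor was lowest, among the CT16 arrays, on CT16 replicate 3. ITGB1, for example, read 13.09, 13.42 and 11.65 in CT16 cells, against 12.63, 13.08 and 13.09 in control cells. The receptor median without that array was not computed.

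Of 9 genes for collagen degradation, 7 were tested with a median of -0.17, and 2 were lower at that p, beside 3.1% of all genes. MMP2, a gelatinase that also cleaves type IV collagen, read 6.61, 6.64 and 6.92 in CT16 cells, against 8.08, 7.49 and 7.67 in control cells (log2 difference -1.02 ± 0.24, adjusted p = 0.285). CTSK, a collagen-cleaving cathepsin, read 11.46, 11.57 and 11.15 in CT16 cells, against 12.17, 12.10 and 11.96 in control cells (-0.68 ± 0.22, adjusted p = 0.528). Neither overlapped between groups, beside 7.23% of the genes detected in both groups that were lower without overlap.

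The last list held TGF-beta genes and transcriptional regulators of collagen genes, with 10 of 11 tested and a median of -0.32. CCN2, a matricellular protein induced by TGF-beta, was the 1 member higher at an unadjusted p under 0.05, beside 3.31% of all genes, and 0 were lower. It read 9.25, 9.02 and 9.28 in CT16 cells, against 8.52, 8.65 and 8.53 in control cells (0.62 ± 0.20, adjusted p = 0.553). SMAD7, an inhibitor of TGF-beta signalling, differed by -0.41 ± 0.27 with overlapping groups. Apart from SKI and CCN2, each tested member was lowest, among the CT16 arrays, on CT16 replicate 3. TGFBR2, for example, read 11.49, 11.59 and 9.86 in CT16 cells, against 11.51, 11.65 and 11.75 in control cells. Neither the median of this list without that array nor the share of all genes lowest on it was computed.

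**Figure D5:**
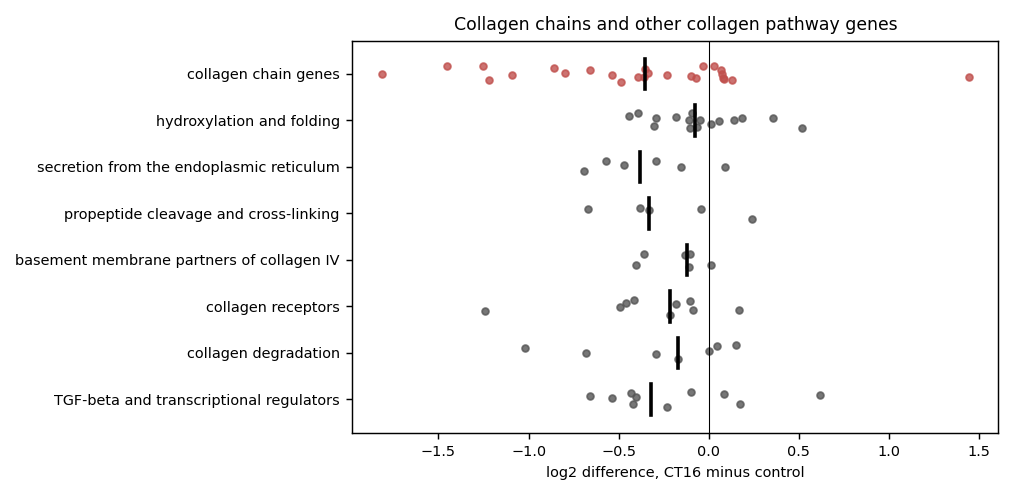
Each point is 1 tested gene, with its log2 difference, CT16 minus control, on the horizontal axis, and each row is the collagen chain genes (red) or 1 list of other collagen pathway genes (grey), with its median as a black bar. The median is -0.35 for the chains and runs from -0.38 for the secretion list to -0.079 for hydroxylation and folding, and COL5A3 is the chain farthest to the right. All medians include CT16 replicate 3, on which every tested secretion gene was lowest among the CT16 arrays. List medians without that array, and the share of all genes lowest on it, were not computed.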

How the data were processed

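RNA from 3 CT16 and 3 control cultures was hybridized on Illumina Human-6 BeadChips. The authors deposited non-normalized bead signal intensity values and detection p-values for each probe and array, together with a table of their quantile-normalized intensity values. In R 4.3.3 and limma 3.58.1, intensities were background-corrected (normexp, with control statistics inferred from the detection p-values, offset 16), quantile-normalized and put on the log2 scale. Probes detected (p under 0.01) on at least 3 of 6 arrays were fitted with lmFit and eBayes, with Benjamini-Hochberg adjustment across every tested probe and a threshold of 0.05. A gene was represented by its tested probe of highest mean signal. No count depth exists for arrays, and their number limits the precision. The study used rank products; limma was used here.

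Gene symbols came from the platform annotation: 27578 probes had 1 symbol, 13 had several and were left unnamed, and 21212 were not listed. By gene identifier, 27541 probes matched RefSeq. Rows of 1 repeated probe identifier were averaged. Promoter windows came from RefSeq (GRCh38.p14). No source used here names the build behind the probes.

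The members, lists and tests were chosen with earlier results of these data known. All tested chain genes were named, with values on all arrays for those with an unadjusted p under 0.05 and the 8 of highest mean signal. In each pathway list, members past the adjusted threshold or otherwise up to 2 of smallest p were named. "At least" folds set the mean of the detected group against the mean of each array's dimmest detected signal. The fit was tested on simulated arrays. Alternatives covered background correction, normalization, detection filter, probe choice, array weights, a replicate block and each array left out.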

Additional observations from a re-analysis of the deposited data

How the results depend on the processing

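The count of collagen chain genes past the threshold was 0 with each other background correction, normalization, filter and probe choice tried, with the replicate block, and without any array other than CT16 replicate 3. Leaving out 1 array in turn gave 0 to 3 collagen chain genes and 3 to 147 genes in all, and a median of -0.42 to -0.24 over the collagen chain genes. Without both CT16 replicate 3 and control replicate 1, an alternative chosen after seeing the data because these arrays deviated together (r = 0.798 across genes), 4 collagen chain genes passed (COL1A2, COL14A1, COL15A1 and COL27A1) of 291 genes. Array weights called 18 collagen chain genes of 4384 genes. Their estimation did not converge and gave CT16 replicate 1 a weight of 37.8 and CT16 replicate 3 a weight of 0.0601, so those calls rest mostly on single arrays. Probes detected on all 6 arrays gave 4 genes past the threshold. Over all 42 chain genes, with no detection filter, the median was -0.069, and the 17 added genes were not detected on 3 arrays. Same-numbered arrays correlated at -0.669, 0.673 and -0.629 in their deviations from the group mean. An outlying array dominates such deviations, so these values cannot decide whether the numbers pair the samples. The fit with the replicate block called 3 genes and no collagen chain gene. No block by slide was run, because the files name no slide.

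Signs turned only in chain genes with a main difference between -0.23 (COL5A2) and 0.13 (COL8A2). Under median scaling COL12A1 was -0.052, COL7A1 -0.026 and COL9A2 -0.0069, and under cyclic loess COL12A1 was -0.017. Under array weights COL12A1 was -0.39, COL5A2 0.14, COL6A5 -0.061, COL7A1 -0.46, COL8A1 0.17, COL8A2 -0.13 and COL9A2 -0.17. Without both arrays named above COL12A1 was -0.36, COL16A1 (same sign) -0.37, COL20A1 0.037, COL5A2 0.17, COL7A1 -0.19, COL8A1 0.048 and COL9A2 -0.13. With 1 array left out, COL12A1 ranged from -0.47 to 0.30, COL16A1 from -0.24 to 0.13, COL19A1 from -0.16 to 0.28, COL20A1 from -0.34 to 0.12, COL5A2 from -0.40 to 0.10, COL7A1 from -0.14 to 0.33, COL8A1 from -0.23 to 0.022, COL8A2 from -0.038 to 0.29 and COL9A2 from -0.31 to 0.27. The cause of these changes was not tested. Chains with signals near the detection limit had smaller fitted differences with no background correction, with the authors' normalized values and with an offset of 50. COL27A1 was -0.68, -0.68 and -0.72 under these settings. The fitted values of COL5A3, which are no bounds, were 0.84, 0.84 and 0.81, and those of COL4A3 were -0.46, -0.46 and -0.42.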
